A study of Sus scrofa with 9 samples.

Results

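Round spermatids were set against pachytene spermatocytes of the pig testis across all measured genes. The comparison was defined by the submitters' cell type labels and took 6 of the 9 libraries of the series, 3 of round spermatids (replicates 1, 2 and 3) and 3 of spermatocytes (replicates 2, 3 and 4). The 3 spermatogonia libraries entered the fit only to help estimate the spread between replicates. Every group is described by its tissue, testis, and its cell type; the spermatocyte columns are headed with the pachytene stage. The sources used here do not give breed, age, animals or the way the cells were isolated, and no treatment is named for any group. The series pairs expression with chromatin structure across sperm formation, and this comparison asks which transcripts differ before and after the meiotic divisions.

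Pachytene spermatocytes are cells in meiotic prophase, in which paired chromosomes are held together by the synaptonemal complex and exchange DNA strands. In that stage the X and Y chromosomes are transcriptionally silenced. The divisions that follow leave haploid round spermatids, which build an acrosome and a flagellum and store mRNAs for transition proteins and protamines, the small basic proteins that later replace histones in the sperm nucleus.

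Library totals were 59188714 to 61887248 estimated counts for spermatocytes and 47963316 to 56184809 for round spermatids, and 16802 of 22342 genes passed the filter on low counts. Levels are in CPM, counts normalised to library size with TMM, a factor that aligns the bulk of genes between libraries. Values of single libraries are listed in the order of replicates 2, 3 and 4 for spermatocytes and 1, 2 and 3 for round spermatids. Means are given with the SD of n = 3 libraries, and the word called means a Benjamini-Hochberg adjusted p below 0.05 in edgeR's quasi-likelihood test over all genes tested. Replicates correlated across genes at 0.982 to 0.989 for spermatocytes and 0.979 to 0.993 for round spermatids, where replicate 2 was the farthest from the other two. Between the stages the correlation was 0.737 to 0.786. No animals are named, and p-values therefore reflect how far these libraries vary, a spread that may be technical.

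The stage markers SYCP2, PRM1 and TNP1 followed the labels. SYCP2, which lies along the axes of paired chromosomes in the synaptonemal complex, stood at 890.0, 1165 and 894 CPM in spermatocytes and 61.5, 38.7 and 64.8 CPM in round spermatids. PRM1, the main protamine, stood at 682, 200.4 and 671 CPM in spermatocytes and 3752, 2342 and 3165 CPM in round spermatids, and TNP1, a transition protein, at 228, 69.8 and 164 CPM in spermatocytes and 1027, 817 and 938 CPM in round spermatids. For each of these 3 genes the groups did not overlap, and spermatocytes 3 held the least PRM1 and TNP1 of any library compared. Messenger RNA of late spermatid genes was thus measured in the spermatocyte libraries too. Not every spermatid marker was higher in round spermatids. Of the acrosome genes described below, ACRV1 and SPACA1 were not called, and ACR was called lower.

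The round spermatid libraries also held transcripts of somatic testis cells that were almost missing from the spermatocyte libraries. ACTA2, the actin of smooth muscle and of the peritubular myoid cells around the tubules, stood at 0.176, 0.109 and 1.05 CPM in spermatocytes and 1004, 1301 and 963 CPM in round spermatids. Over the 7 lists of somatic cell markers together, the share of counts was 0.0540, 0.0541 and 0.0725% in spermatocytes 2, 3 and 4 and 4.08, 4.57 and 4.04% in round spermatids 1, 2 and 3. Genes of the immediate early and stress response, which many cells switch on quickly after a stimulus, took 0.0900, 0.0942 and 0.0895% and then 1.51, 1.33 and 1.49% of counts. For both shares the groups did not overlap, and the exact two-sided permutation p was 0.1, the smallest that 3 against 3 can give. In these bulk libraries, fewer cells of a type and less RNA of a kind per cell cannot be told apart, and how far these transcripts move the germ cell values below was not tested.

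**Figure D1:**
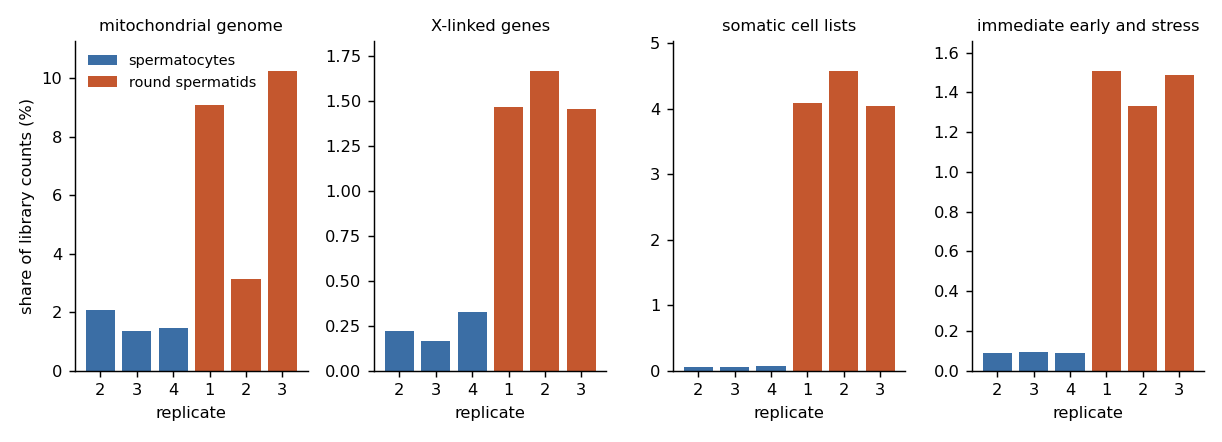
Share of library counts (%, bars from 0) from the mitochondrial genome, X-linked genes, the somatic cell lists, and immediate early and stress genes in each of the 6 libraries, numbered by replicate. All 4 shares are higher in every round spermatid library than in every spermatocyte library, and round spermatids 2 has 3.14% from the mitochondrial genome where the other two have 9.09 and 10.2%.

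Most genes differed between the stages. Called higher in round spermatids were 7177 of 16802 genes (42.7%), and called lower were 6124 (36.4%). Changes of at least 4-fold were called for 3979 genes upward (23.7%) and 1226 downward (7.3%), and for 13138 genes (78.2%) the 3 libraries of each stage did not overlap. Over all genes the median log2 change was 0.19. A second scaling, chosen after seeing the data, took TMM factors only from 540 genes of the 17 meiotic and spermatid lists; it raised all changes by about the same amount, to a median of 1.19, and called 10796 genes higher (64.3%) and 2723 lower (16.2%). It is called germ cell list scaling below. On the main scaling those 540 genes were themselves mostly lower, with 369 called lower, 102 higher and a median of -1.20, so what follows is read against both medians. Counts of calls in each list are to be read beside the 42.7% of all genes called higher and the 36.4% called lower. Of all calls 53.96% were upward; the figure was 65.66% without normalization factors, 49.59% without the 50 most abundant genes and 79.86% with germ cell list scaling.

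**Figure D2:**
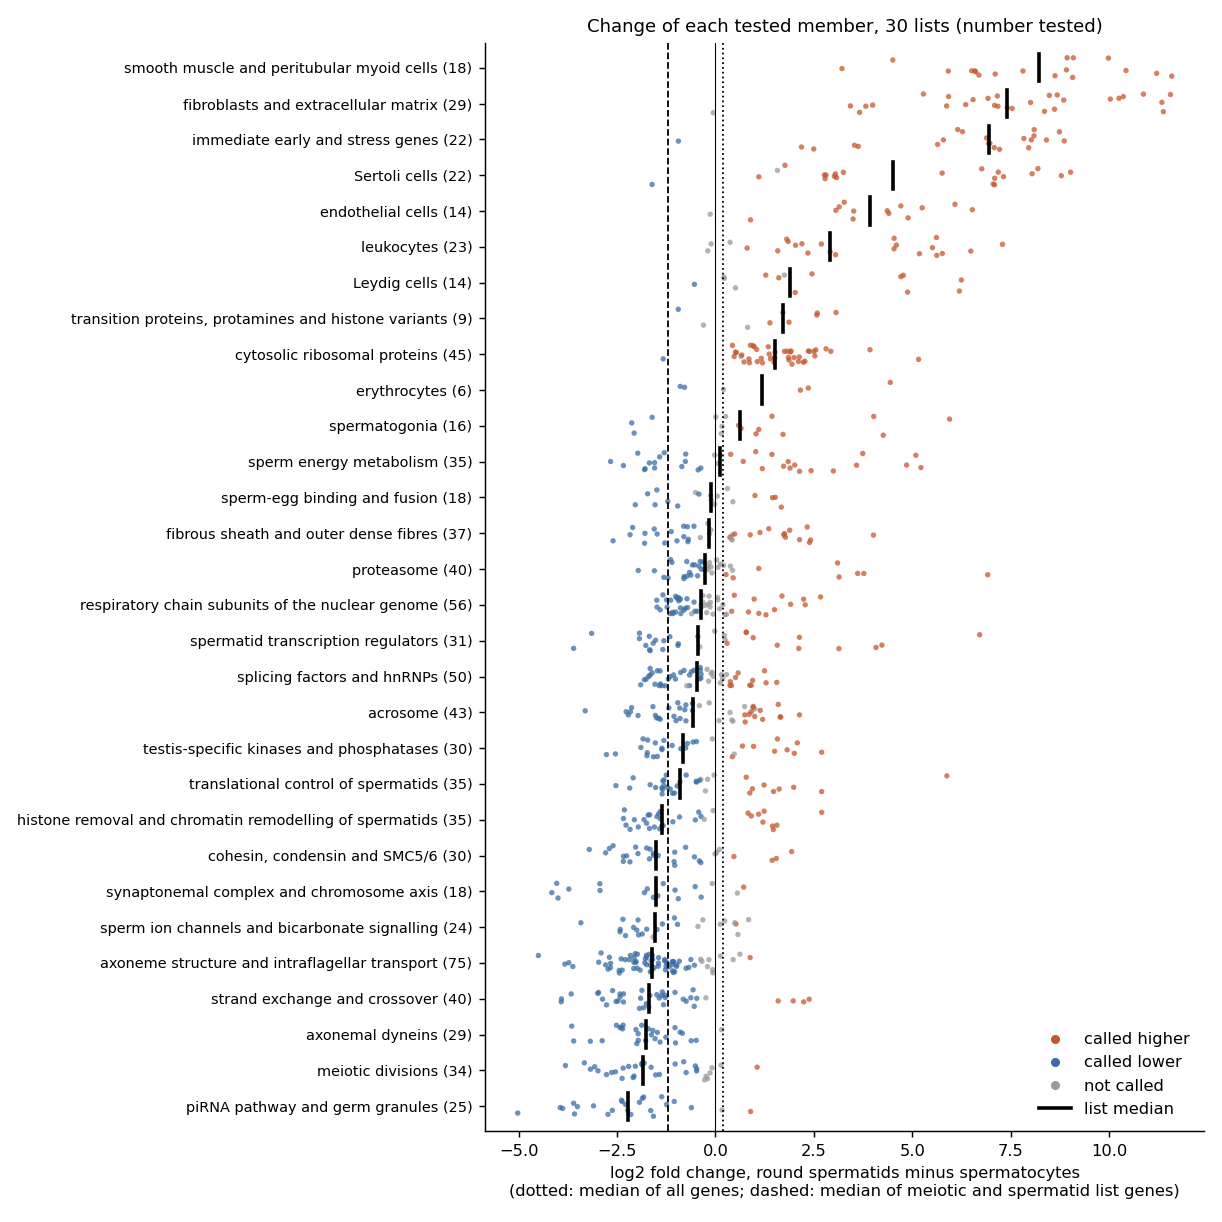
Log2 fold change, round spermatids minus spermatocytes (x axis), of each tested member of 30 gene lists (rows, ordered by median; 1 point per gene, coloured by its call; black bars, list medians). Lists of meiosis, germ granules, the axoneme and sperm ion channels lie lowest, with medians from -2.23 to -1.51 that stay below 0 under every scaling run. The immediate early list and the somatic lists other than erythrocytes lie highest.

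Transition proteins, protamines and linker histones of spermatids were the germ cell list with the largest median rise. Of its 9 tested members 6 rose and 1 fell, with a median log2 change of 1.71 (2.70 with germ cell list scaling). PRM1, at chromosome 3, 31861087 to 31861529, was 5.96-fold higher, from 518 ± 275 to 3086 ± 708 CPM (log2 change 2.57 ± 0.39, edgeR, adjusted p = 0.000126). Its neighbour PRM2, at 31864350 to 31864959, stood at 131, 47.5 and 145 CPM in spermatocytes and 993, 732 and 982 CPM in round spermatids and was 8.37-fold higher. TNP2, the transition protein gene of the same cluster (31868517 to 31871530), was 3.65-fold higher, and TNP1, on chromosome 15 at 119037492 to 119038099, 6.01-fold. Groups did not overlap for any of these 4 genes. H1-7, a linker histone of elongating spermatids, rose 3.28-fold from 36 ± 16.9 CPM, whereas H2AZ1, a replication-independent H2A variant, went from 158 ± 26.4 to 82 ± 24.9 CPM, lower on the main scaling and just above 0 and not called with germ cell list scaling.

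**Figure D3:**
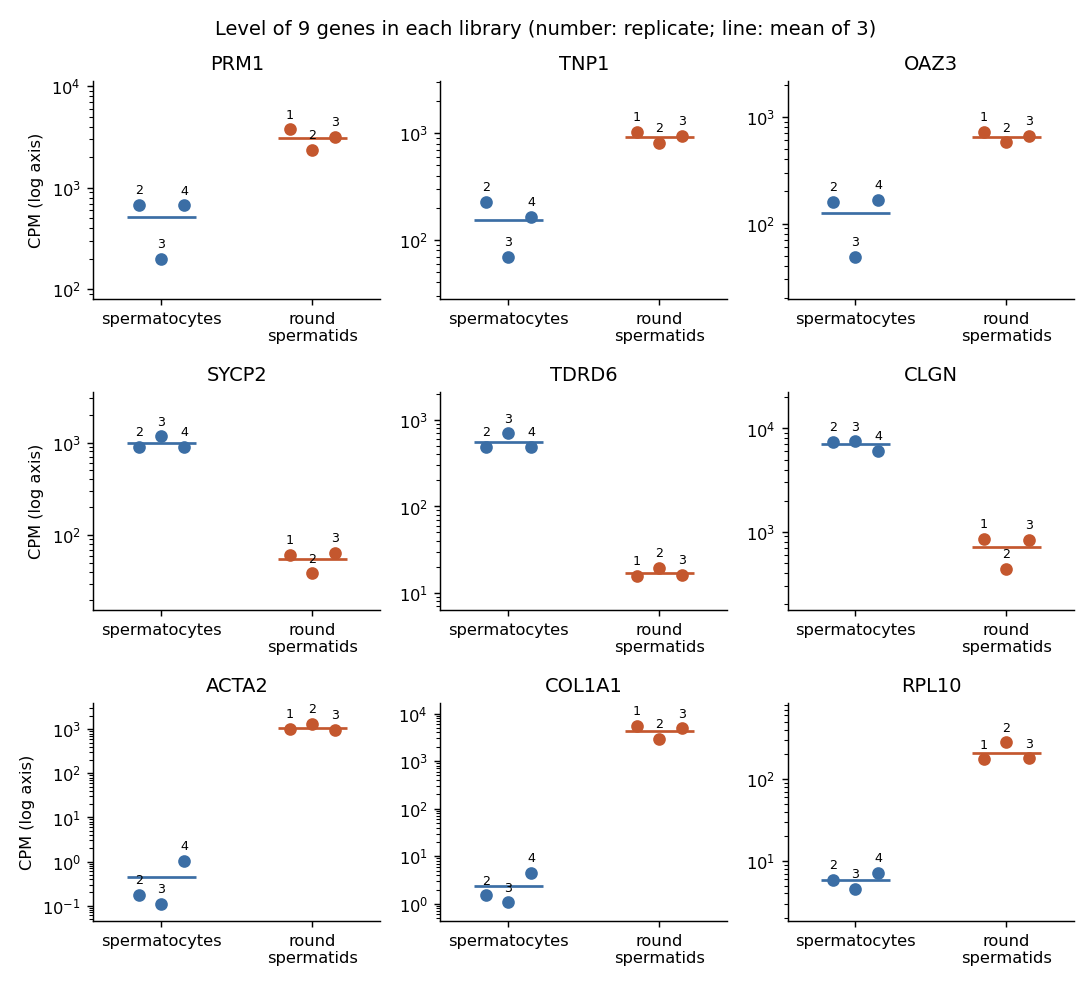
CPM (log axis) of 9 genes in the 3 spermatocyte and 3 round spermatid libraries (points, numbered by replicate; lines, means of 3). PRM1, TNP1, OAZ3, ACTA2, COL1A1 and RPL10 are higher in all round spermatid libraries, SYCP2, TDRD6 and CLGN lower in all of them, and spermatocytes 3 is lowest for PRM1, TNP1 and OAZ3.

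Genes for the sperm tail's fibrous sheath and outer dense fibres were called about as often as all genes: 14 of 37 rose and 16 fell, or 37.8 and 43.2%, beside 42.7 and 36.4% of all genes. They had a median of -0.15 that was above 0 without normalization factors (0.30), with germ cell list scaling (0.84) and with some libraries left out (up to 0.10). OAZ3, a testis antizyme, stood at 158, 48.9 and 167 CPM in spermatocytes and 721, 576 and 661 CPM in round spermatids, a 5.24-fold rise. SPEM2, a factor of spermatid maturation, rose 5.34-fold from 62.2 ± 35.5 CPM, ODF1, an outer dense fibre protein, 3.7-fold from 110.4 ± 58.2 CPM, and AKAP4, the X-linked scaffold of the fibrous sheath, 2.56-fold from 108 ± 58.6 CPM. Spermatocytes 3 held the least of each of these 4. Members that fell included CCDC38, from 1584 ± 178 to 261 ± 70.5 CPM, and the lactate dehydrogenase LDHC, from 449 ± 73.2 to 129 ± 19.7 CPM. ODF2, another outer dense fibre protein, went from 2844 ± 134 to 1733 ± 297 CPM, lower on the main scaling and called higher with germ cell list scaling.

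The acrosome list also held both directions. Of 43 tested members 13 rose and 22 fell, with a median of -0.58 (0.40 with germ cell list scaling, where 21 were higher and 10 lower). Among the lower were chaperones and secretory cargo: CLGN, an endoplasmic reticulum chaperone for sperm surface proteins, stood at 7439, 7496 and 6113 CPM in spermatocytes and 857, 433 and 832 CPM in round spermatids and fell 9.92-fold (edgeR, adjusted p = 4.55e-07). ZPBP2, a zona-binding protein of the acrosomal matrix, went from 2026 ± 143 to 436 ± 97.9 CPM, and DPY19L2, which anchors the acrosome to the nucleus, from 889 ± 105 to 184 ± 15.4 CPM. ACR, the protease acrosin, went from 939 ± 106 to 414 ± 101 CPM, a fall no longer called with germ cell list scaling. SPACA1 and ACRV1, both proteins of the acrosome, were not called, at 38.3 and 39.5 CPM in spermatocytes and 40.8 and 52.7 CPM in round spermatids. With germ cell list scaling both were called higher, with log2 changes of 1.09 and 1.383, and ACRV1 was also called higher without spermatocytes replicate 4 (0.82).

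A group of 10 actin-related and perinuclear theca genes within that list, picked out after its values were seen, had 7 members called higher and 0 lower. The perinuclear theca is the cytoskeletal shell between acrosome and nucleus. ACTL9, an actin-like protein, stood at 43.5, 18 and 51.9 CPM in spermatocytes and 115, 131 and 112 CPM in round spermatids, without overlap, and was 3.15-fold higher. CCIN, which encodes calicin, rose 2.3-fold, ACTL7A 2.0-fold and CAPZA3, a capping subunit of sperm actin, 1.94-fold. CYLC1 and CYLC2, the cylicins, had log2 changes of 0.74 ± 0.40 and 1.002 ± 0.49 and were not called. Both were called higher with germ cell list scaling (1.71 and 1.96), without normalization factors (1.15 and 1.383) and without spermatocytes replicate 4 (1.27 and 1.52), CYLC1 also with a replicate block (1.24) and CYLC2 without round spermatids replicate 2 (1.37).

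Meiotic chromosome genes were lower in round spermatids. Of 18 synaptonemal complex and axis genes 15 fell and 1 rose (median -1.52), and of 40 genes of strand exchange and crossover 35 fell and 4 rose (median -1.68). With germ cell list scaling the lower and higher counts were 9 and 5 for the first list (median -0.51) and 24 and 8 for the second (median -0.68). SYCP2 fell 17.9-fold (log2 change -4.16 ± 0.21, edgeR, adjusted p = 3.68e-08). HORMAD1, which marks unsynapsed axes, stood at 312, 358 and 258 CPM in spermatocytes and 19.97, 15 and 23 CPM in round spermatids, a 16-fold fall with every round spermatid library far below every spermatocyte library. The SYCP1 transcript, for the transverse filament, fell less, 3.49-fold from 166 ± 58 CPM, and SYCP3, the other lateral element protein, 2.04-fold from 119.8 ± 9.39 CPM; the SYCP3 call was lost with germ cell list scaling. In the same way BRCA2, which loads recombinases on single strands, fell 12.7-fold from 49.9 ± 7.58 CPM and the recombinase gene DMC1 2.81-fold from 25.7 ± 10.4 CPM, the latter not called with germ cell list scaling.

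Some recombination genes moved the other way. MSH4, a partner of MSH5 at crossover sites, rose from 7.62 ± 0.294 to 29.98 ± 8.14 CPM, and CCNB1IP1, a ligase of crossover designation, from 5.25 ± 1.53 to 24.9 ± 7.64 CPM. MSH5 itself fell, from 8.84 ± 1.22 to 2.32 ± 0.218 CPM. SPO11, the enzyme that cuts DNA to begin recombination, stood at 2.39, 1.86 and 3.62 CPM in spermatocytes and 4.89, 3.18 and 4.9 CPM in round spermatids. These groups overlapped, since round spermatids 2 lay below spermatocytes 4, and the rise was called on the main scaling but lost in 9 of 21 alternatives.

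Cohesins and condensins, the ring complexes that hold and fold chromosomes, followed the meiotic pattern, with 23 of 30 lower and 4 higher (median -1.51), or 16 lower and 10 higher with germ cell list scaling (median -0.51). SMC6, of the SMC5/6 repair complex, stood at 1746, 1904 and 1357 CPM in spermatocytes and 233, 68.4 and 241 CPM in round spermatids, with the lowest value in round spermatids 2. SMC1B, the meiotic SMC1 subunit, fell 6.93-fold from 648 ± 54.6 CPM and SGO2, the shugoshin that guards centromeric cohesin, from 806 ± 45.8 to 124 ± 31.1 CPM. REC8, the meiotic kleisin of these rings, stood at 16.2, 10.3 and 18.4 CPM in spermatocytes and 43.2, 47 and 41.3 CPM in round spermatids. It rose, without overlap of the groups.

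Of 34 genes of the meiotic divisions 27 were lower and 1 higher (median -1.84), and with germ cell list scaling 21 were lower and 10 higher (median -0.84). BUB1B, a spindle checkpoint kinase, fell from 143 ± 19.4 to 10.2 ± 1.16 CPM, and CENPE, a kinetochore motor, from 214 ± 26.1 to 21.2 ± 7.55 CPM. CDC25B, a phosphatase that activates CDK1, was the member called higher on the main scaling, from 8.68 ± 1.68 to 18.1 ± 2.26 CPM. CDK1 itself fell, from 26.2 ± 1.54 to 6.38 ± 0.454 CPM.

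The piRNA pathway and germ granule list had the lowest median of all lists, -2.23 (-1.22 with germ cell list scaling), with 23 of 25 members lower and 1 higher. These proteins make small RNAs that silence transposons and direct mRNA decay. TDRD6, a tudor protein of germ granules, stood at 491, 701 and 485 CPM in spermatocytes and 15.7, 19.6 and 16.2 CPM in round spermatids, a 32.6-fold fall (edgeR, adjusted p = 4.68e-09) with no overlap. TDRD1 fell from 317 ± 86.7 to 20.6 ± 3.56 CPM, MYBL1, the transcription factor of pachytene piRNA precursors, from 338 ± 20.5 to 27.8 ± 6.05 CPM, and DDX4, the germ cell helicase, from 1073 ± 79.9 to 205 ± 28.4 CPM.

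Most flagellum genes were also lower in round spermatids. Of 29 axonemal dynein genes 28 fell and 0 rose (median -1.78), of 75 genes of axoneme structure and intraflagellar transport 65 fell and 1 rose (median -1.61), and of 24 ion channel and bicarbonate signalling genes 15 fell and 1 rose (median -1.53). With germ cell list scaling the lower and higher counts of these lists were 20 and 2 (median -0.78), 44 and 13 (median -0.61) and 12 and 7 (median -0.54). DNAH10, an inner arm dynein heavy chain, stood at 332, 579 and 426 CPM in spermatocytes and 29.8, 40.1 and 36.3 CPM in round spermatids, a 12.6-fold fall. DYNC2H1, the motor of retrograde intraflagellar transport, fell 22.6-fold from 82.2 ± 37.3 CPM, and WDR35, of the transport complex it carries, 14.2-fold from 219 ± 57.5 CPM. CATSPERE, an auxiliary subunit of the sperm calcium channel, fell 10.7-fold from 77.7 ± 10.5 CPM. KIF17, a kinesin of the intraflagellar list, was its member called higher on the main scaling, from 75.7 ± 34.2 to 139 ± 15.5 CPM. Among 18 sperm-egg binding and fusion genes 7 fell and 4 rose, or 38.9 and 22.2%, beside 36.4 and 42.7% of all genes. Their median of -0.12 was above 0 without normalization factors (0.32), with germ cell list scaling (0.87) and without spermatocytes replicate 4 (0.16). ACE, the peptidase with a testis form, rose from 81.4 ± 39.98 to 234 ± 28.5 CPM, and LYPD4, a surface protein of sperm, fell from 374 ± 12.7 to 91 ± 4.36 CPM.

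Regulators of the spermatid programme were divided. Of 35 genes of histone removal and chromatin remodelling 24 fell and 9 rose (median -1.36), against 16 and 14 with germ cell list scaling (median -0.38), and of 31 transcription regulators 16 fell and 11 rose, with a median of -0.45 that was 0.54 with germ cell list scaling, where 12 were lower and 16 higher. BRDT, the bromodomain protein that binds acetylated histones, stood at 1089.5, 1290.2 and 1279.6 CPM in spermatocytes and 257, 220.4 and 246 CPM in round spermatids, a 5.06-fold fall. TSSK6, a kinase needed for histone replacement, moved the other way, at 10.7, 4.41 and 13.5 CPM in spermatocytes and 55.8, 75.3 and 55.3 CPM in round spermatids, and TOP2B, the topoisomerase of spermatids, rose from 50.4 ± 6.47 to 139.7 ± 18.4 CPM. Among the transcription factors TCFL5 fell from 937 ± 69.2 to 246 ± 25.2 CPM and LHX2 from 92.9 ± 22.3 to 10.5 ± 6.05 CPM. KLF4, a factor of spermatids and of many somatic cells, stood at 30.2, 19.6 and 43.3 CPM in spermatocytes and 478, 761 and 508 CPM in round spermatids, an 18.8-fold rise.

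Kinases and translation factors were also split. Of 30 testis kinases and phosphatases 19 fell and 9 rose (median -0.82, and 0.17 with germ cell list scaling, where 11 were lower and 13 higher), with TEX14, of germ cell bridges, falling from 387 ± 63.4 to 56.7 ± 7.08 CPM and CSNK1G2, a casein kinase, rising from 54.5 ± 22.6 to 230.4 ± 4.19 CPM. Of 35 genes of translational control 22 fell and 9 rose (median -0.90, and 0.10 with germ cell list scaling, where 12 were lower and 16 higher). The Y-box proteins package stored mRNA. YBX2, the germ cell member, went from 12549.6 ± 2511 to 5385 ± 1631 CPM and YBX1 from 12045 ± 1407 to 3809.7 ± 238 CPM. Both were called lower on the main scaling, and the YBX2 call was lost with germ cell list scaling. PABPC4, a poly(A)-binding protein, rose from 10.6 ± 2.13 to 68.8 ± 13.7 CPM.

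Cytosolic ribosomal protein genes rose together: 43 of 45 were called higher and 1 lower, against the 42.7% of all genes called higher, with a median of 1.51 and no change of sign under any scaling. RPL4 rose from 74 ± 10.2 to 565 ± 66.2 CPM and RPS23 from 7.29 ± 0.845 to 51.2 ± 23.5 CPM. RPL10L, the autosomal retrocopy that serves in meiosis, was the member that fell, from 79.3 ± 3.87 to 31.6 ± 2.88 CPM. Ribosomal proteins have many processed copies, so reads could be divided between copies in the authors' counting.

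Genes of energy metabolism were also called in shares near those of all genes. Of 35 genes 17 rose and 15 fell, or 48.6 and 42.9%, beside 42.7 and 36.4%, with a median of 0.12 that was -0.07 without the 50 most abundant genes and as low as -0.01 with a library left out. All 12 of the broadly expressed glycolytic enzymes in the list, grouped after their values were seen, were called higher, from hexokinase HK2 (0.777 to 22.6 CPM) and PFKL (0.407 to 15.3) to PGAM1 (11.6 to 156) and GAPDH. GAPDH stood at 13.4, 10.4 and 10.6 CPM in spermatocytes and 375, 439.7 and 358 CPM in round spermatids, a 34.1-fold rise, and GAPDHS, its sperm form, at 29.99, 12.6 and 37.3 CPM in spermatocytes and 114, 134 and 103 CPM in round spermatids, a 4.4-fold rise. On the length-corrected TPM scale GAPDHS was at 42.5 in spermatocytes and 183 in round spermatids and GAPDH at 12.4 and 418. The order of these levels thus reversed in the bulk libraries. How much of the GAPDH level in round spermatid libraries came from somatic cells was not tested. AK7, an adenylate kinase of the flagellum, fell from 217 ± 20.5 to 42.9 ± 5.45 CPM, and SLC25A31, the testis ADP/ATP carrier, from 35.9 ± 6.91 to 5.66 ± 0.445 CPM.

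The nuclear subunits of the respiratory chain and the proteasome moved less. Of 56 respiratory subunits 26 fell and 12 rose (median -0.36, 0.12 without normalization factors and 0.66 with germ cell list scaling), and of 40 proteasome genes 19 fell and 8 rose (median -0.28, 0.21 and 0.74). With germ cell list scaling 32 respiratory and 30 proteasome genes were higher and 2 and 3 lower. PSMA8, the meiotic proteasome subunit, fell from 53.1 ± 6.38 to 13.6 ± 1.65 CPM. The 5 immunoproteasome and activator genes, which somatic and immune cells induce with interferon, all rose, with log2 changes from 3.10 to 6.92; PSME1 went from 2.38 ± 0.683 to 32.6 ± 1.3 CPM. Of 50 splicing factors 29 fell and 11 rose (median -0.47, and 0.52 with germ cell list scaling, where 10 were lower and 28 higher), with HNRNPUL1 falling from 1619 ± 115 to 499.6 ± 165 CPM and HNRNPA1 rising from 159 ± 17.4 to 469 ± 108 CPM.

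The mitochondrial genome gave a larger share of counts in round spermatids, with 2.07, 1.37 and 1.46% in spermatocytes 2, 3 and 4 and 9.09, 3.14 and 10.2% in round spermatids 1, 2 and 3. The groups did not overlap (exact two-sided permutation p = 0.1, the smallest possible), and replicate 2 lay nearer to the spermatocytes than the other round spermatid libraries. Of its 13 tested protein genes 12 were called higher, but in 4 of these 12 round spermatids 2 did not lie above the spermatocytes. For ATP6, ND4 and CYTB it lay within their range, and for ND5, at 1132 CPM against 1260.0 to 1572 CPM, below it. The calls of these 4 genes were lost with a replicate block, and that of ND5 also with limma-voom and without round spermatids replicate 3. ATP6, an ATP synthase subunit, stood at 7879.9, 5332 and 4209 CPM in spermatocytes and 24139.9, 4426 and 25384 CPM in round spermatids, and its call was lost without round spermatids replicate 3, without spermatocytes replicate 4 and with a replicate block (edgeR, adjusted p = 0.19 with the block). The 100 most abundant genes took 23.3, 22.8 and 21.9% of counts in spermatocytes and 25.4, 19.5 and 26.0% in round spermatids, which overlapped (exact two-sided permutation p = 0.7); with the mitochondrial genome left out the shares were 22.6, 22.6 and 21.6% against 18.99, 17.8 and 18.7%. By TPM, 9 of the 10 most abundant genes of round spermatids were mitochondrial and the remaining gene was PRM1, at 29204 ± 3298 TPM against 5332 ± 2907 TPM in spermatocytes. In spermatocytes the 10 most abundant included 3 Y-box genes, PSIP1, HSP90AA1 and MEA1. PSIP1, a chromatin-bound coactivator, stood at 8586, 8132 and 7002 CPM in spermatocytes and 1272, 393 and 1163 CPM in round spermatids, and round spermatids 2 was lowest.

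X-linked genes were higher in round spermatids to a degree that no autosome approached. Of 415 tested X-linked genes 336 (81.0%) were called higher and 11 lower, with a median log2 change of 2.05. On the 18 autosomes together, 5189 of 12252 genes rose and 4701 fell, the median was 0.13, and the medians of single autosomes lay between -0.22 and 0.28. X-linked genes took 0.223, 0.163 and 0.328% of counts in spermatocytes 2, 3 and 4 and 1.47, 1.66 and 1.45% in round spermatids 1, 2 and 3 (exact two-sided permutation p = 0.1, the smallest possible), without overlap. Chromosomes were assigned by gene symbol for 13685 genes. The X median was above 0 under every scaling and with each library left out.

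**Figure D4:**
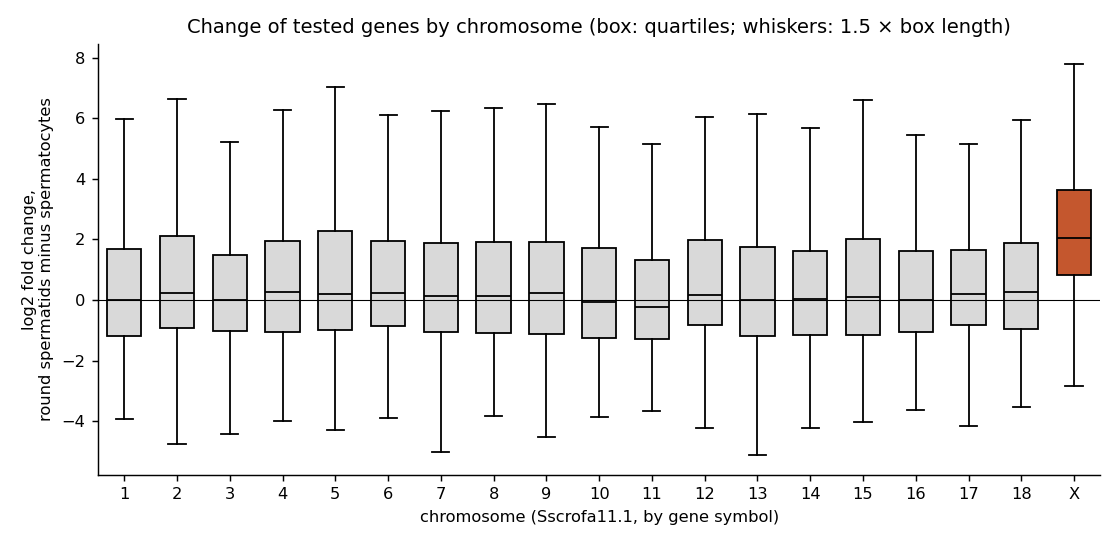
Log2 fold change, round spermatids minus spermatocytes (y axis), of tested genes on each chromosome (boxes, quartiles and median; whiskers, up to 1.5 box lengths; points beyond them not drawn). The X box, with a median of 2.05, stands above the 18 autosomes, whose medians run from -0.22 to 0.28.

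Within the meiotic and spermatid lists, 8 of 11 X-linked genes rose and 1 fell, against 86 and 340 of 486 autosomal ones. The median log2 change was 0.78 for these X-linked genes and -1.25 for the autosomal ones. The X-linked list genes thus lay below the median of 2.05 for all X-linked genes. RPL10 and RPS4X, the X-linked members of the ribosomal protein list, had log2 changes of 5.16 ± 0.24 and 3.93 ± 0.15. The median of the 43 autosomal members was 1.49. RPL36A, an X-linked ribosomal protein gene outside that list, rose less than either, with a log2 change of 3.22 ± 0.20. RPL10 (X, 124927249 to 124929791) stood at 5.84, 4.56 and 7.16 CPM in spermatocytes and 173, 279 and 177 CPM in round spermatids.

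Single X-linked genes showed the span. PGK1, the somatic phosphoglycerate kinase, stood at 2.35, 1.81 and 3.33 CPM in spermatocytes and 24.9, 40.04 and 25.3 CPM in round spermatids, a 12-fold rise, and STAG2, a cohesin subunit, at 10.4, 8.91 and 14.1 CPM in spermatocytes and 41, 39.8 and 47.2 CPM in round spermatids, a 3.83-fold rise. Several of the largest X-linked rises were genes of connective tissue and muscle, such as BGN (biglycan, 0.457 to 1426 CPM), TIMP1 (0.359 to 391) and FLNA (filamin A, 1.01 to 1038), so somatic transcripts and X-linked germ cell transcripts rose together, and their parts in the X-linked share cannot be told apart here. SCML2, a germline Polycomb protein that sits on sex chromosomes, fell against this trend, from 42.4 ± 10.5 to 13.1 ± 0.743 CPM, as did AP1S2, an adaptor subunit, from 54.5 ± 6.65 to 26.2 ± 1.19 CPM, though with germ cell list scaling the AP1S2 call was lost.

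Germline genes were also compared with their broadly expressed counterparts. Some are autosomal copies that can stand in for a silenced X-linked gene, such as RPL10L for RPL10. Others are related genes, and in most tested pairs the broad gene is autosomal. Of 47 listed pairs 25 had both members tested. In 10 pairs the members had opposite calls: in 8 the germline gene fell and the broad gene rose, and in 2 the reverse was seen. In 5 of those 8 pairs the broad gene is X-linked. Over all genes 42.7% were called higher and 36.4% lower, and of the 540 meiotic and spermatid list genes 102 were higher and 369 lower. How often unrelated pairs of genes have opposite calls was not counted. SLC25A31 fell 6.35-fold while SLC25A5 rose 28.7-fold, RPL10L fell 2.51-fold while RPL10 rose 35.8-fold, and DDX4 fell 5.23-fold while DDX3X rose 6.81-fold. In the cohesin ring STAG3 fell 2.98-fold and STAG2 rose, and SMC1B fell while SMC1A, at log2 0.47 ± 0.18, was called higher on the main scaling but not in 14 of 21 alternatives.

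**Figure D5:**
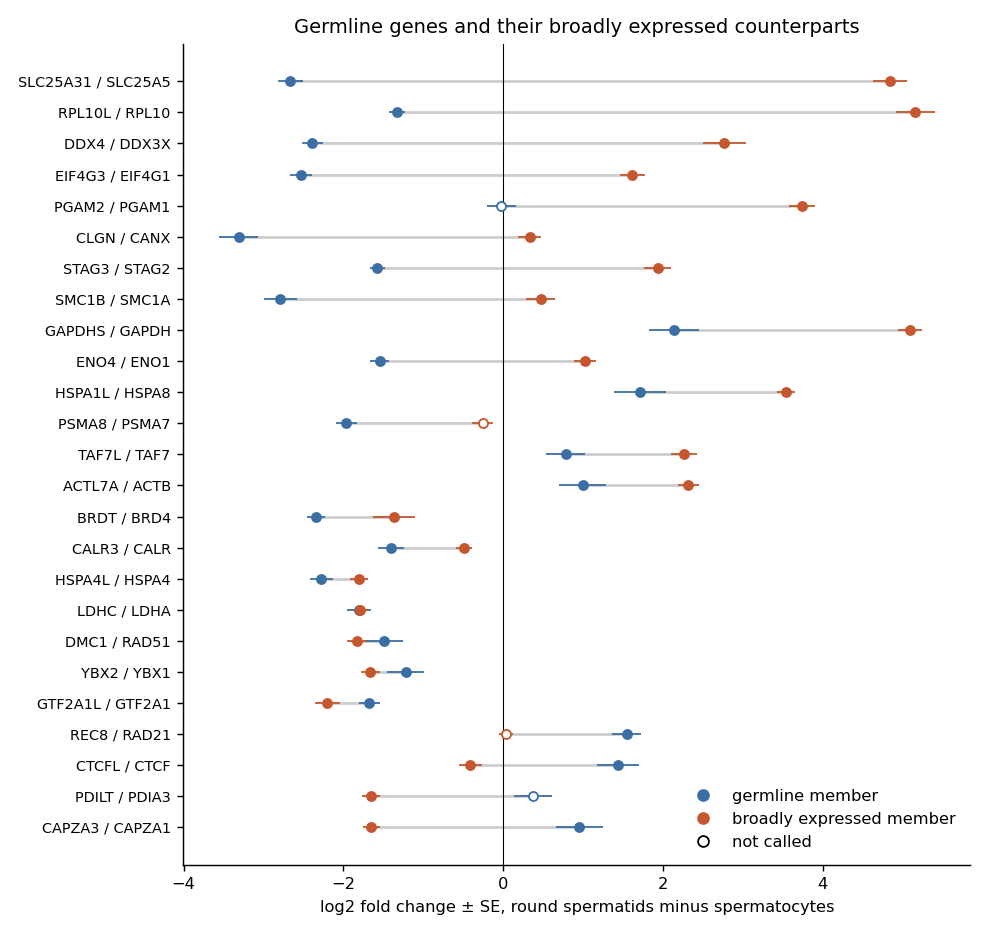
Log2 fold change ± SE, round spermatids minus spermatocytes (x axis), of the germline member and the broadly expressed member of 25 gene pairs (rows; open points, not called). The broad member lies to the right of the germline member in 18 pairs, most of all for SLC25A5 over SLC25A31. The median log2 change was -1.20 for all meiotic and spermatid list genes and 0.19 for all genes.

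On the per-length TPM scale, the more abundant member in the bulk libraries changed between the stages in the first 3 of these pairs. The round spermatid libraries also held somatic transcripts, and their part in the levels of the broad genes was not tested. SLC25A31 was at 78.2 TPM in spermatocytes and 12.2 in round spermatids, and SLC25A5 at 1.28 and 37.3. RPL10L was at 243 and 92.1 TPM and RPL10 at 10.05 and 366. DDX4 went from 821 to 148 TPM and DDX3X from 29.1 to 186, whereas STAG3, at 359 and 117 TPM, stayed above STAG2, at 4.46 and 16.2.

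The 2 pairs with the reverse order were CTCFL with CTCF and CAPZA3 with CAPZA1. CTCFL, the testis relative of the insulator protein CTCF, stood at 2.37, 1.92 and 4.21 CPM in spermatocytes and 7.21, 8.82 and 7.1 CPM in round spermatids, a 2.71-fold rise. CTCF itself went from 77.3 ± 7.34 to 58.1 ± 10.7 CPM, a small difference called lower on the main scaling, called higher with germ cell list scaling, just above 0 and not called without normalization factors, and called otherwise than on the main scaling in 6 of 21 alternatives. CAPZA3 rose while CAPZA1 fell 3.14-fold. Both members rose in 4 pairs, GAPDHS and GAPDH among them, both fell in 7, LDHC and LDHA among them, and in 4 a member was not called.

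Genes of connective tissue and muscle led the rises. The 12 largest among called genes of at least 50 CPM included MFAP4, COL1A1, COL1A2, COL3A1, SPARC, BGN and ACTA2. All 18 smooth muscle and myoid markers rose (median log2 change 8.22), as did 28 of 29 fibroblast and matrix genes with 0 lower (median 7.41), 20 of 22 Sertoli markers with 1 lower (median 4.51), 13 of 14 endothelial markers with 0 lower (3.94), 20 of 23 leukocyte markers with 0 lower (2.91) and 9 of 14 Leydig markers with 1 lower (1.89). On log2(TPM + 1), which understates changes of low genes, the medians were 6.64, 5.71, 1.501, 2.62, 0.84 and 0.56 in the same order. The erythrocyte list was mixed, with 3 of 6 tested markers called higher and 2 lower (median 1.18, and 0.44 on log2(TPM + 1)). COL1A1, the collagen I chain of fibroblasts, stood at 1.51, 1.07 and 4.38 CPM in spermatocytes and 5465, 2876 and 4845 CPM in round spermatids, and MFAP4, a microfibril protein, at 0.098, 0.0873 and 0.574 CPM in spermatocytes and 1495, 1081 and 1425 CPM in round spermatids. The smooth muscle markers together took 0.00312, 0.00321 and 0.00507% of counts in spermatocytes and 1.07% in each round spermatid library (exact two-sided permutation p = 0.1, the smallest possible). Sertoli markers that rose included INHBA, from 1.15 ± 0.431 to 511 ± 131 CPM, and GDNF, from 0.282 ± 0.077 to 75.1 ± 1.87 CPM. The Leydig enzyme gene CYP11A1 rose from 0.153 ± 0.0227 to 11.9 ± 2.49 CPM, and CD74 of antigen-presenting cells from 9.84 ± 1.22 to 483 ± 35.4 CPM.

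At the low end, 34 genes had at most 3 counts in every spermatocyte library and at least 5 CPM in round spermatids, and 0 genes had the reverse. DPT, dermatopontin of the connective tissue matrix, had 0 counts in each spermatocyte library and 47.4 ± 2.41 CPM in round spermatids, at least 723-fold higher when set against a floor of 3 counts per library. Among immediate early and stress genes 21 of 22 rose and 1 fell (median 6.96). EGR1, a transcription factor of early responses, stood at 7.1, 5.63 and 23 CPM in spermatocytes and 3848, 1960.0 and 4007 CPM in round spermatids, and all round spermatid libraries were far above all spermatocyte libraries. DNAJB1, a heat shock cochaperone, was the member that fell, from 954 ± 112 to 497 ± 155 CPM, with a log2 change just above 0 and not called with germ cell list scaling.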

How the data were processed

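Libraries of total RNA from pig testis cells were made with a directional kit and read on an Illumina HiSeq, per the labels' protocols. The submitters' processing notes name Sscrofa11.1 and bcl2fastq. Which aligner, quantifier and annotation were used, and whether counting used strand, is not given in the sources used here, so overlapping and antisense genes are uncertain. The authors deposited estimated counts and TPM per gene and library. Column headings match the sample titles for round spermatids, name the pachytene stage for spermatocytes and the KIT receptor for spermatogonia, a match that rests on the meaning of these names. The other 6 library columns were not used.

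Estimated counts were rounded, filtered with filterByExpr, scaled by TMM and fitted over all 9 libraries with edgeR 4.0.16 (glmQLFit, glmQLFTest; R 4.3.3); the common dispersion was 0.0316. Standard errors are the size of the log2 change over the square root of F. P-values were adjusted by Benjamini-Hochberg over all 16802 genes and called below 0.05. Counting error weighs most on genes near the level of 1 count, 0.0165 to 0.0218 CPM. Symbols were found for 14749 of 22342 identifiers; PIWIL1, HSPA2, CREM, PGK2, PRM3 and XIST are not analysed here. Chromosomes and positions come from RefSeq's Sscrofa11.1 table, matched by symbol for 13685 genes. Shares of counts were compared by exact permutation tests in scipy 1.17.1.

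The comparison, the gene lists and the pairs were chosen with earlier results of these data known. Genes were named by rule: the 12 largest rises and falls of at least 50 CPM, up to 4 members per list in the main direction and 2 in the other, stage markers, the 10 most abundant genes by TPM, genes at 3 counts or fewer in a stage, paralog pairs and X-linked genes. Not all of these are described, and ACTL7A, CCIN, CYLC1, CYLC2, H1-7, LDHA, MSH5, CDK1, CFL1, CYTB, ND4, ND5, HSPA8, KLF10, TUBA1B and ZFP36L1 were named after their values were seen. Alternatives were RLE factors, no factors, TMM without the 50 most abundant genes, no filter, a filter of 1 CPM in 3 libraries, DESeq2 1.42.0, limma-voom and limma 3.58.1 on log2(TPM + 1), glmTreat against 1.5-fold, only the compared stages, a replicate block, and each library left out; factors from the germ cell lists were added after seeing the data. On simulated counts of this comparison (16577 genes), 64.6% of planted 2-fold changes were recovered, 90.9% of 4-fold ones, and 6 calls were false. The simulation held 99 planted genes of each size, raised and lowered in about equal numbers, and no other stage effect. Most genes differ in the real data, so it cannot show errors that come from the scaling.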

Additional observations from a re-analysis of the deposited data

How the results depend on the processing

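Of 123 named genes, 100 kept their direction and call under every alternative run, and 7 others changed only with factors from the germ cell lists. With those factors, chosen after seeing the data, the counts were 10796 higher and 2723 lower, the median of all genes 1.19 and that of X-linked genes 3.05, and CTCF, DNAJB1, H2AZ1 and ODF2 turned to log2 changes of 0.58, 0.0859, 0.0814 and 0.28; CTCF also turned to 0.0355 without normalization factors. For the median log2 change of all genes (0.19) the values were 0.0811 with DESeq2, 0.0802 with RLE factors, 0.0389 on TPM, 0.0354 with no filter, 0.64 without factors and -0.00377 without the 50 most abundant genes. The X-linked median (2.05) was 0.96 on TPM and 2.49 without factors. On the deposited TPM the round spermatid excess was 19.2 percentage points for the share of counts from the mitochondrial genome, 0.576 for the share of counts in smooth muscle markers and 16.3 for the share of counts in the 100 most abundant genes, which fell by 3.79 points without mitochondrial genes; these were 5.85, 1.06 and 0.958 on counts. With a library left out, higher counts ran from 6939 to 7434, lower from 5934 to 6332, the median of all genes from 0.16 to 0.28, the X-linked median from 1.91 to 2.29, and the shares' excess from 4.48 to 8.02, 1.06 to 1.06 and -0.250 to 3.03 points. Whether replicate numbers pair the libraries could not be settled, since few libraries share a number. Deviations of same-numbered libraries correlated at -0.033 and -0.047, and those of differently numbered ones at -0.090 to 0.093. With a replicate block 7067 genes were higher and 5949 lower. With spermatocytes 3 left out 6994 were higher and 6061 lower, and with round spermatids 2 left out 7303 and 6332. Depth limits the genes under about 1 CPM, and round spermatids 2 is the shallowest library.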

Other observations

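Among genes already well expressed in spermatocytes, only the 15 largest rises were taken, after the values were seen. Other such genes, PRM1 and TNP1 among them, rose less and lie outside the 15. The set took called genes of at least 30 CPM in spermatocytes whose groups did not overlap, and its size was fixed by that choice. It held mRNA-decay and early response regulators (ZFP36L1, from 39.1 ± 18.8 to 1225 ± 413 CPM; KLF10, from 111 ± 6.52 to 1226 ± 394 CPM), cytoskeletal genes (the actin-severing CFL1, from 57.6 ± 13 to 892 ± 173 CPM; the tubulin TUBA1B, from 99.5 ± 22.4 to 1357 ± 503 CPM) and the chaperone HSPA8, from 117 ± 9.1 to 1368 ± 74.9 CPM. PRM2 was the only member of a meiotic or spermatid list among them besides KLF4. Of 16 spermatogonial genes 9 were called higher and 3 lower, or 56.25 and 18.75%, beside 42.7 and 36.4% of all genes. KIT is the receptor of differentiating spermatogonia and of some somatic cells. It stood at 7.7, 6.64 and 8.07 CPM in spermatocytes and 25.2, 22.8 and 25.7 CPM in round spermatids, without overlap. ETV5, a factor of spermatogonial stem cells, went from 274 ± 36.5 to 62.6 ± 4.13 CPM.

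Spermatocytes 3 was most often the lowest spermatocyte library among meiotic and spermatid list genes called higher in round spermatids. Of 83 meiotic and spermatid list genes called higher in round spermatids with at least 10 CPM in the higher stage, 67 had their lowest spermatocyte value in replicate 3, and its median ratio to the mean of replicates 2 and 4 was 0.638 (quartiles 0.389 and 0.831). Of the 351 such genes called lower, 30 had their lowest value there, with a median ratio of 1.11 (quartiles 1.05 and 1.20). Genes were counted within the same libraries and are not independent. Both sets were chosen by calls that use these same values, so the counts only describe them. No such count over all genes is given beside them, so they cannot show whether these genes differ from others in that library.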
